A study of Mus musculus with 7 samples.

Results

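The 8 genes described here, Corin, Gm30835, 4930500G05Rik, Luzp2, Prr16, Npas3, Nek10 and C130073E24Rik, were chosen by their levels in tumor nuclei of RPC against RP animals, as genes whose RPC animals both lay above or both lay below the RP animals. The rule that lists them also names their levels in tumor nuclei and in normal cell classes. All 8 symbols were found once in each of the 4 gene tables, out of 56941 genes, and all 8 passed the filter on low counts, which left 20083 genes. Single nuclei came from fresh-frozen small cell lung cancers (SCLC) of 4 male mice, RP1, RP2, RPC1 and RPC2, and 7 sequencing libraries each pooled nuclei of every animal. The labels give RP animals as Rb1 fl/fl, Trp53 fl/fl and RPC animals as Rb1 fl/fl, Trp53 fl/fl, Casp8-/-, while the methods describe a conditional Casp8 allele. All animals had received, through the trachea, an adenovirus with Cre recombinase under the CMV promoter, which is active in most cell types, so deletion was not limited to one lung cell type. Tumors were taken at the endpoint of the disease, and the labels give no ages for these 4 animals.

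Nuclei were called tumor-like by whole clusters, not one by one. In such a cluster no marker list of another cell type scored above 0.5, and depth was at least 0.5 times the median of the animal. The median of 14 markers of neuroendocrine cells also had to exceed that of the named non-tumor nuclei of its main animal. The summed level of these markers in tumor-like nuclei was 6139 to 10194 CPM (counts scaled to a common total of transcripts). Of 38254 nuclei kept, the tumor-like ones numbered 7125 and 7255 in RP1 and RP2 and 9094 and 8660 in RPC1 and RPC2. The deposited totals ran from 32299909 transcripts in RP1 to 72446861 in RPC1, both RPC animals were deeper than both RP animals, and no barcode was shared between animals. Casp8 was at 58.8 and 61.0 CPM in the animals RP1 and RP2 and at 89.0 and 66.4 CPM in RPC1 and RPC2. A count over the whole gene cannot show the loss of single exons, so it is no check of the genotype, and RP and RPC mean the animals so labelled. Tumor markers were high in every other class too. In endothelial-like nuclei, which should lack them, the median neuroendocrine marker reached 74.2% and 73.5% of the tumor-like level in RP1 and RP2 and 77.1% and 85.9% in RPC1 and RPC2.

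SCLC is a neuroendocrine cancer of the airway, and its cells carry secretory and neuronal genes. Of the 5 coding genes, Corin encodes a membrane-bound serine protease of the heart that cuts the precursor of atrial natriuretic peptide into its active form. Npas3 encodes a transcription factor with a basic helix-loop-helix and a PAS domain, best known from the developing nervous system. Nek10 encodes a kinase related to NIMA, a regulator of mitosis in fungi, and is known for its part in the motile cilia of airway cells. Luzp2 encodes a leucine zipper protein found mainly in the brain, and Prr16 a proline-rich protein, also called Largen, that affects cell size. Gm30835, 4930500G05Rik and C130073E24Rik are long noncoding RNAs without a function known well enough to state here.

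The 8 genes lie on 7 chromosomes (GRCm39, the build of the files; positions from GENCODE vM39). Corin (ENSMUSG00000005220) spans chr5:72457290-72661924 on the minus strand, and Gm30835 (ENSMUSG00000105068) lies on the same strand at chr5:7730108-8014301. The others are Luzp2 at chr7:54484973-54918634 (plus), C130073E24Rik at chr8:51192942-51370205 (minus), Npas3 at chr12:53294940-54118958 (plus), Nek10 at chr14:7457704-7666348 (minus), Prr16 at chr18:51250756-51553118 (plus) and 4930500G05Rik at chrX:12754211-12862153 (plus). All are long genes, from 108 kb for 4930500G05Rik to 824 kb for Npas3. Most of that length is intron: the exons of the canonical transcript hold 1316 bases in 4930500G05Rik and 6404 bases in Npas3.

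The 250 bases before the canonical transcript start of 3 genes are shown, because Npas3 and C130073E24Rik varied together between tumor clusters and Nek10 varied with mitosis. The C130073E24Rik window lies within the span given for that gene and overlaps an annotated exon of a long noncoding RNA. The windows of Npas3 and Nek10 overlap no exon.

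Npas3 (chr12:53294690-53294939, plus strand): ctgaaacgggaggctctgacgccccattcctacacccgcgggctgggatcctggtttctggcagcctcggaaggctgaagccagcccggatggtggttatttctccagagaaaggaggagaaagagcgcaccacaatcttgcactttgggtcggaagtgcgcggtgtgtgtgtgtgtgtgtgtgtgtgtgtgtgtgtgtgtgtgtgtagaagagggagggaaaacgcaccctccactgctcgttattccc
C130073E24Rik (chr8:51369919-51370168, minus strand): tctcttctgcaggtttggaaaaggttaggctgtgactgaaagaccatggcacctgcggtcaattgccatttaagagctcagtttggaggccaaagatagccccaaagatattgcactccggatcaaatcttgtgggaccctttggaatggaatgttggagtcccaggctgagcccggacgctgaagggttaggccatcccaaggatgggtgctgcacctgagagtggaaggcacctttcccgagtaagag
Nek10 (chr14:7666349-7666598, minus strand): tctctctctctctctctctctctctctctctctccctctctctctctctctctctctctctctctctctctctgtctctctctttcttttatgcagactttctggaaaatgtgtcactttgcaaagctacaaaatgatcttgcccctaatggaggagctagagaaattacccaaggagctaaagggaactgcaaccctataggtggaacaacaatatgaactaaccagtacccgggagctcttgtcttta

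On either strand, neither GTTGCC, a part of the motif of RFX factors of ciliated cells (in 9.83% of the same windows of 78284 annotated genes), nor the full NFI palindrome (0.0179%) was found in these 3 windows. The Npas3 window was 57.2% GC, the C130073E24Rik window 52.4% and the Nek10 window 44.8%, beside a median of 55.2% over 19918 genes tested. The absence of a match says only that these letters are not in the window.

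In tumor-like nuclei, 3 of the 8 genes stood higher in both RPC animals than in both RP animals, and 5 stood lower. Since these levels chose the genes, they are given without a test. Of all genes tested, 24.9% had both RPC animals above both RP animals, 25.5% had both below, and 2.99% were so separated by at least the smallest difference among the 8. With edgeR, 0 of 20083 genes (0%) passed an adjusted p of 0.05 between RPC and RP, while 3047 had a p under 0.05 before adjustment and DESeq2 gave 723 calls.

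Corin had the largest difference of the 3 higher genes and was at 24.9 and 28.1 CPM in the animals RP1 and RP2 and at 376 and 203 CPM in RPC1 and RPC2 (CPM of tumor-like nuclei scaled by TMM). The RP animals were nearly alike, and the RPC animals differed 1.85-fold from each other. The mean was 26.5 ± 2.27 CPM in RP and 290 ± 122 CPM in RPC (SD, n = 2 each), a log2 fold change of 3.45. 4930500G05Rik was at 11.1 and 13.4 CPM in RP1 and RP2 and at 58.4 and 56.3 CPM in RPC1 and RPC2, a log2 fold change of 2.23. Nek10 was at 20.2 and 23.3 CPM in RP1 and RP2 and at 65.1 and 60.5 CPM in RPC1 and RPC2, a log2 fold change of 1.53. In 4930500G05Rik and Nek10, animals of one genotype differed at most 1.21-fold from each other.

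Gm30835 differed most between the genotypes of all 8 genes. It was at 337 and 515 CPM in the animals RP1 and RP2 and at 9.96 and 13.4 CPM in RPC1 and RPC2, with means of 426 ± 126 CPM in RP and 11.7 ± 2.41 CPM in RPC (SD, n = 2 each). Its log2 fold change of -5.19 ranked 3 by size among all 20083 genes. Npas3 was at 367 CPM in RP1 and 335 CPM in RP2, and at 30.0 CPM in RPC1 and 95.8 CPM in RPC2. The RPC animals thus differed 3.20-fold from each other, and the log2 fold change of -2.48 was -3.53 without RPC2.

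Luzp2 showed the widest distance between RP animals. It was at 68.1 and 178 CPM in the animals RP1 and RP2 and at 2.93 and 6.08 CPM in RPC1 and RPC2, a log2 fold change of -4.77 that was -3.92 without RP2. C130073E24Rik was at 76.1 and 40.7 CPM in RP1 and RP2 and at 1.29 and 5.51 CPM in RPC1 and RPC2, where only 70 and 251 transcripts were counted. Its log2 fold change of -4.11 was -5.48 without RPC2. Prr16 was at 69.4 and 91.0 CPM in RP1 and RP2 and at 4.63 and 18.8 CPM in RPC1 and RPC2, and its log2 fold change of -2.78 was -4.10 without RPC2. Prr16, Npas3 and C130073E24Rik are therefore the members whose RPC animals lay far apart, by 4.06, 3.20 and 4.27 times.

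**Figure D1:**
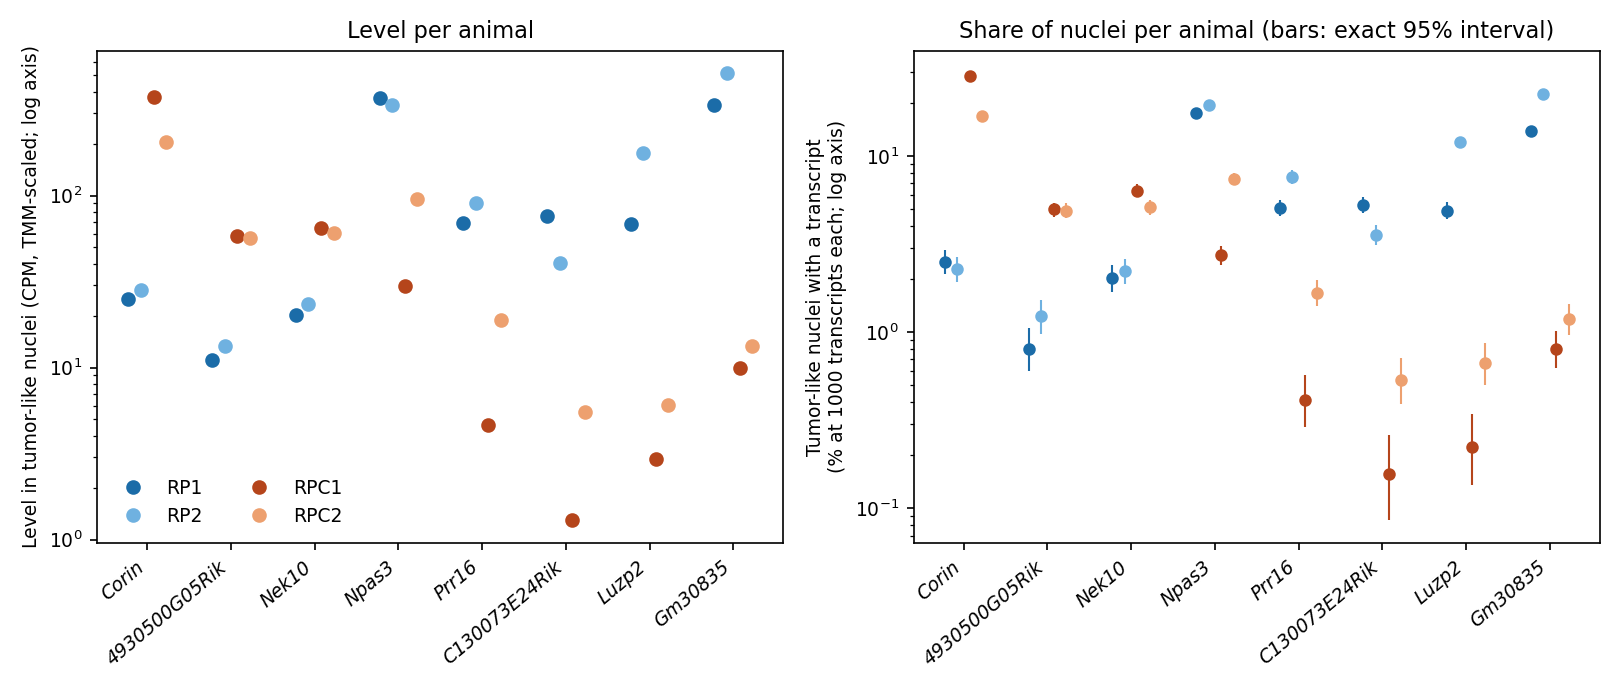
The left panel plots the level of each of the 8 genes in tumor-like nuclei (CPM scaled by TMM, log axis), with 1 point per animal. The right panel plots how many tumor-like nuclei held a transcript after each nucleus was reduced to 1000 transcripts (percent, log axis, bars: exact 95% binomial interval). Corin, 4930500G05Rik and Nek10 lie higher in both RPC animals and the other 5 genes lie lower, from 1.29 CPM (C130073E24Rik in RPC1) to 515 CPM (Gm30835 in RP2).

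The order of the 8 levels turned over between the genotypes when levels were divided by gene length, which makes different genes comparable. Per kilobase of gene, Gm30835 led in both RP animals, with 1.19 and 1.81 CPM per kb, and Corin led in both RPC animals, with 1.84 and 0.994 CPM per kb. Nek10, the lowest of the 8 per kilobase in RP1 (0.0969) and RP2 (0.112), came next after 4930500G05Rik in RPC1 (0.312) and RPC2 (0.290). The length of the whole gene was used because nuclear RNA is rich in introns.

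The share of nuclei that held a transcript is given beside the summed level. The rule that chose the genes names this measure too, so it is a description and no second line of support. Each nucleus was reduced to 1000 transcripts, which left out 792 and 749 tumor-like nuclei of RP1 and RP2 and 122 and 421 of RPC1 and RPC2. Corin was then found in 2.49% (95% exact binomial interval 2.12 to 2.91) and 2.27% (1.93 to 2.67) of nuclei of RP1 and RP2, against 28.5% (27.6 to 29.4) and 16.8% (16.0 to 17.7) of those of RPC1 and RPC2. Macrophage- or monocyte-like nuclei gave 0 of 145 (which at a floor of 3 counts allows up to 2.07%) and 0.365% in RP1 and RP2 and 9.73% and 7.55% in RPC1 and RPC2, as the share in a class that should lack tumor genes. Their median depth before the reduction was 3363.5 to 5032 transcripts, and that of the tumor-like nuclei 2505 to 3399. Intervals cover counting error only.

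Gm30835 was found in 13.9% (13.0 to 14.7) of RP1 and 22.5% (21.5 to 23.5) of RP2 nuclei, and in 0.802% (0.628 to 1.01) and 1.19% (0.967 to 1.45) of RPC1 and RPC2 nuclei. Macrophage- or monocyte-like nuclei of RP1 and RP2 held it in 11.03% and 15.7%, near the tumor-like share in RP1 and below it in RP2. Npas3 was found in 17.5% and 19.4% of tumor-like nuclei of RP1 and RP2 and in 2.73% and 7.40% of RPC1 and RPC2. Luzp2 was found in 4.88% and 11.9% against 0.223% and 0.668%, Prr16 in 5.07% and 7.59% against 0.412% and 1.66%, and C130073E24Rik in 5.26% and 3.55% against 0.156% and 0.534%. 4930500G05Rik was found in 0.805% and 1.23% of RP against 4.96% and 4.88% of RPC nuclei, and Nek10 in 2.02% and 2.21% against 6.35% and 5.10%. In macrophage- or monocyte-like nuclei the shares of RP1 and RP2, then RPC1 and RPC2, were 12.4% and 9.49%, then 2.16% and 2.52% for Npas3. They were 2.07% and 5.84%, then 0.541% and 0.629% for Luzp2, 0.690% and 3.28%, then 0 and 2.52% for Prr16, and 3.45% and 1.09%, then 0.541% and 0 for C130073E24Rik. For 4930500G05Rik they were 0 and 1.09%, then 1.62% and 3.14%, and for Nek10 0 and 1.82%, then 1.62% and 1.89%. The tumor-like shares of Luzp2 and C130073E24Rik in RPC1 and of Prr16 in RPC2 were below those of this class. By summed level, however, this class stood at 54.3%, 41.1% and 68.2% of the tumor-like level, on only 3, 1 and 21 transcripts. Whether these low tumor-like shares are background or expression was not tested. All 8 kept their animals apart at 500 and at 2000 transcripts per nucleus, which again describes the chosen values and is no further support. Without the reduction the values rose with depth, for example to 57.4% in RPC1 and 40.6% in RPC2 for Corin.

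Levels within an animal were also compared over the 7 sublibraries. Corin ran from 376 to 407 CPM in RPC1 and from 198 to 212 CPM in RPC2, so each sublibrary of RPC1 exceeded each of RPC2. Npas3 ran from 317 to 382 CPM in RP1, from 294 to 380 CPM in RP2, from 24.2 to 37.0 CPM in RPC1 and from 90.03 to 110 CPM in RPC2. The distance between the RPC animals in Corin and Npas3 thus stood in every sublibrary. Ranges were wide where levels were low, as for C130073E24Rik with 0.567 to 2.01 CPM in RPC1 and 2.35 to 7.72 CPM in RPC2, and for Gm30835 with 5.72 to 17.1 CPM in RPC1. Each first-round well held 1 animal, so wells and animals cannot be told apart.

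Tumor-like nuclei were not uniform for these genes. Tumor-like nuclei fell into 30 clusters of at least 50 nuclei (9 in RPC2 and 7 in each other animal), which were formed without the 8 genes. RPC1 cluster 7 (103 nuclei) and RPC2 cluster 7 (420 nuclei) were led in part by markers of other lung cells, 4 and 3 of their 10 leading genes, among them Scgb1a1 of club cells and Sftpb or Sftpc of alveolar cells. Their median neuroendocrine markers stood at 187 and 146 CPM, above those of the other clusters of the same animals. Without both clusters, a setting added after the data had been seen, the log2 fold changes between RPC and RP were 3.46 for Corin, 2.24 for 4930500G05Rik, 1.54 for Nek10 and -5.19 for Gm30835. Npas3, C130073E24Rik and Gm30835 had their highest levels in the same cluster in RP1 and in the same cluster in RP2. RP1 cluster 5 (742 nuclei, 10.4% of the tumor-like nuclei of RP1) held Npas3 at 1574 CPM, C130073E24Rik at 346 CPM and Gm30835 at 949 CPM, the highest level of each in RP1. It also held the lowest Corin and Nek10 levels of that animal, 1.51 and 5.05 CPM. RP2 cluster 5 (975 nuclei, 13.4%) held the highest levels of the same trio in RP2, with Npas3 at 1284 CPM, C130073E24Rik at 220 CPM and Gm30835 at 1545 CPM. This cluster alone gave 51.9% of the C130073E24Rik transcripts of RP2. Gm30835 was less confined, with 21.0% of its transcripts in cluster 5 of RP1 and 28.8% in cluster 5 of RP2. In RP2 cluster 1 (2161 nuclei) Gm30835 was at 611 CPM, while Npas3 was at 94.8 CPM and C130073E24Rik at 10.6 CPM.

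A small cluster of RPC2 resembled RP2 cluster 5 in its leading genes. RPC2 cluster 9 held 77 nuclei (0.889%), and 6 of its 10 leading genes were shared with RP2 cluster 5, among them Asic2, Unc5d, Epha5 and Grik3, genes of neurons. Npas3 reached 649.5 CPM and C130073E24Rik 120 CPM in it, both the highest levels in RPC2. Gm30835, however, was at 12.03 CPM there, as low as in the other clusters of RPC2 (5.36 to 33.5 CPM). Luzp2 was at 0, which in 77 nuclei is no clear difference from its 6.08 CPM in all tumor-like nuclei of RPC2. Both values rest on few transcripts. RPC1 cluster 5 (576 nuclei), led by Adarb2, Grik2, Lrrtm4 and Nrxn3, was the highest for Npas3 in RPC1 at 112 CPM and for C130073E24Rik at 4.07 CPM. Npas3 exceeded 3 times the level of its animal in cluster 5 of RP1, RP2 and RPC1 and in cluster 9 of RPC2. Without these clusters the log2 fold change between RPC and RP was -2.18 for Npas3, -3.76 for C130073E24Rik and -4.85 for Gm30835. The clusters were cut by Npas3 itself and the genes were chosen on this difference, so these values are a description and no support.

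In the RP animals Luzp2 was highest in other clusters than Npas3. In RP1 its highest level was 321 CPM in cluster 6 (684 nuclei), which held 49.7% of the Luzp2 transcripts in 9.60% of the nuclei, while the Npas3-rich cluster 5 had 9.59 CPM. In RP2 it was highest in cluster 1 (2161 nuclei, 307 CPM), and these 2 clusters shared Adgrg6, Kcnip1 and Cntn5 among 10 leading genes. The Npas3-rich cluster 5 of RP2 held Luzp2 at 139 CPM, level with its median of 139 CPM over the clusters of RP2. Prr16 was highest in cluster 7 of RP1 (411 nuclei, 178 CPM) and in the Npas3-rich cluster 5 of RP2 (210 CPM).

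Nek10 was highest in RPC1 cluster 6 (353 nuclei) at 231 CPM, beside 36.8 to 77.4 CPM in the other clusters of RPC1. The leading genes of that cluster included Dnah11, Dnah9 and Drc1, which encode parts of motile cilia, and its Corin level of 137 CPM was the lowest in RPC1. Corin ran from 137 to 562 CPM over the clusters of RPC1 and from 48.1 to 481 CPM over those of RPC2. Among clusters of at least 50 nuclei, its highest RP level, 45.4 CPM, was just below its lowest RPC level, which came from 77 nuclei. The smaller RP2 cluster 9, with 26 nuclei, held Corin at 124 CPM. Levels between the genotypes chose Corin, so this order is no support. 4930500G05Rik was the most even member, with a range of 1.76-fold to 4.73-fold over the clusters of an animal.

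**Figure D2:**
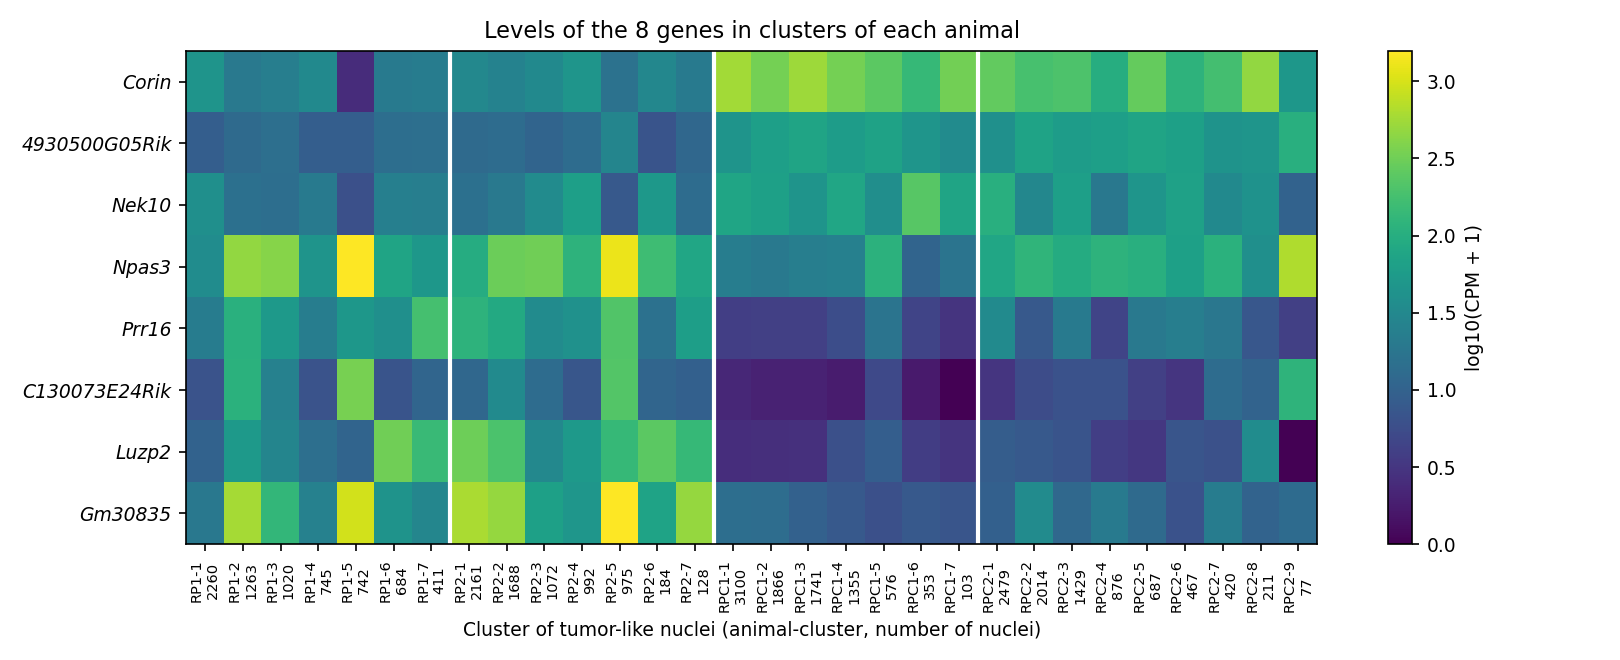
Each column is a cluster of tumor-like nuclei with at least 50 nuclei (animal and cluster number, with the number of nuclei under it), each row 1 of the 8 genes, and the color the level as log10(CPM + 1). Npas3 and C130073E24Rik are brightest in cluster 5 of RP1 and of RP2 and in cluster 9 of RPC2, where Npas3 reached 1574, 1284 and 649.5 CPM.

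Single nuclei of the RP animals showed the same grouping of Npas3 with C130073E24Rik and Gm30835 at 1000 transcripts per nucleus. In RP1, C130073E24Rik was found in 16.6% of 1106 nuclei with an Npas3 transcript and in 2.85% of nuclei without one, and in RP2 in 9.57% of 1265 and 2.10%. Gm30835 was found in 33.6% of nuclei with and 9.68% without Npas3 in RP1, and in 33.2% and 19.9% in RP2. Luzp2 went the other way, with 2.89% against 5.30% in RP1 and 9.17% against 12.6% in RP2. Median depth before the reduction was 2844.5 against 2547 transcripts in RP1 and 2507 against 2504 in RP2. Among the genes higher in RPC, Nek10 was found in 6.57% of nuclei with and 6.27% without Corin in RPC1, and in 6.34% and 4.85% in RPC2. In RP1 the shares were 5.70% (9 of 158 nuclei) and 1.93%, and in RP2 4.05% (6 of 148) and 2.17%. Nuclei of an animal are not replicates, and these shares carry no test.

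The genes were chosen on RPC against RP, but the rule that lists them also names their levels in tumor and normal classes. The contrast of tumor-like with other nuclei of the same animal is thus not independent of the choice. The share of all genes called is therefore no matched background for the 8. This contrast was tested with the animal as a block (edgeR quasi-likelihood test, adjusted p under 0.05 over all genes). Against endothelial-like nuclei, 4 of the 8 genes were higher in tumor-like nuclei, beside 6.69% of all genes tested, and none was lower. The log2 fold change of Luzp2 was 1.07 (SE 0.21, adjusted p = 9.36e-04), that of Corin 0.50 (SE 0.12, adjusted p = 0.00527), that of Npas3 0.44 (SE 0.11, adjusted p = 0.00737) and that of Gm30835 0.48 (SE 0.13, adjusted p = 0.0103). Only the Corin call held with each animal left out. Without RP2 the values were 0.76 for Luzp2, 0.37 for Npas3 and 0.36 for Gm30835, none past the threshold. In endothelial-like nuclei Luzp2 stood at 36.5% and 41.7% of the tumor-like level in RP1 and RP2. It stood at 66.9% and 112% in RPC1 and RPC2, on 2 and 11 transcripts. Npas3 stood at 62.9% and 66.6%, then 85.1% and 93.2%, and Corin at 45.4% and 51.8%, then 73.5% and 82.0%. Gm30835 stood at 83.2% and 63.9%, then 39.4% (4 transcripts) and 92.8%. The neuroendocrine markers had a median of 0.39 in this contrast, with 6 of 14 higher, and the median over the 8 members was 0.40. Without nuclei above 4 times the median depth of their animal, a step added because no doublet caller was run, Luzp2 was at 2.57, Corin at 1.16, Gm30835 at 1.03 and Npas3 at 0.76.

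Against macrophage- or monocyte-like nuclei, 6 of 8 were higher beside 15.5% of all genes, and the median marker was 0.58 with 12 of 14 higher. Corin had a log2 fold change of 0.66 (adjusted p = 3.89e-04), Luzp2 of 0.91 (adjusted p = 5.11e-05), 4930500G05Rik of 0.71 (adjusted p = 0.00286) and Npas3 of 0.48 (adjusted p = 0.00328), and these calls held with each animal left out. Nek10 at 0.56 (adjusted p = 0.0278) and Prr16 at 0.49 (adjusted p = 0.00694) did not: Nek10 was at 0.34 without RPC1 and 0.45 without RPC2, and Prr16 at 0.50 without RP2, none past the threshold. Without the deepest nuclei all 8 genes passed, with log2 fold changes from 0.76 for Gm30835 to 1.68 for Corin.

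In the remaining classes tested, members were higher in tumor-like nuclei in 3 of 8 cases against B cell-like nuclei (6.65% of all genes), 4 against T or NK cell-like (5.68%), 5 against club-like (7.99%), 8 against alveolar type 1-like (11.2%), 5 against alveolar type 2-like (14.6%) and 4 against smooth muscle- or pericyte-like nuclei (11.0%). With each animal left out, 0 of the 3 calls held against B cell-like nuclei, Gm30835 (1.19) against T or NK cell-like, Gm30835 (0.84) and Npas3 (0.64) against club-like, Corin (1.09), Gm30835 (1.23) and Npas3 (1.30) against alveolar type 1-like, the same trio and Nek10 (1.43) against alveolar type 2-like, and Corin (0.69) against smooth muscle- or pericyte-like nuclei. The median neuroendocrine marker in these contrasts ran from 0.34 to 1.11. The smallest of these classes held as few as 23 nuclei in an animal.

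Nek10 departed from this pattern in ciliated-like nuclei, the cells in which the gene is best known. These nuclei numbered 12 and 33 in RP1 and RP2 and 12 and 23 in RPC1 and RPC2, and the class was added to the tests after the data had been seen. Nek10 was at 202 and 244 CPM in the animals RP1 and RP2 and at 115 and 214 CPM in RPC1 and RPC2 in ciliated-like nuclei (CPM without TMM scaling), against 19.5, 23.1, 67.0 and 61.0 CPM in tumor-like nuclei of the same animals. All 4 animals were higher in ciliated-like nuclei, and the log2 fold change of tumor-like over ciliated-like nuclei was -2.30 (SE 0.19, adjusted p = 1.67e-32; -2.82 to -1.85 with 1 animal left out). Nek10 was the only member lower in tumor-like nuclei there, beside 9.67% of all genes, and 6 others were higher, beside 10.4%. At 1000 transcripts per nucleus it was found in 3 of 11 and 12 of 33 ciliated-like nuclei of RP1 and RP2, and in 0 of 12 (up to 25.0% at a floor of 3 counts) and 6 of 23 of RPC1 and RPC2. In the other 8 classes tested, its level was at most 114% of the tumor-like level of the same animal.

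Prr16 departed in smooth muscle- or pericyte-like nuclei, which carry markers of the contractile cells of vessel and airway walls. Fibroblasts were not separated from this class: 7 of 8 fibroblast markers were detected in it, and Eln and Col5a2, genes of the extracellular matrix, were among its leading genes. Prr16 was at 104 and 142 CPM in the animals RP1 and RP2 and at 83.8 and 75.2 CPM in RPC1 and RPC2 there, against 67.1, 90.3, 4.77 and 19.0 CPM in tumor-like nuclei (CPM without TMM scaling). The animals of both genotypes held Prr16 in this class, at 156% and 157% of the tumor-like level in RP1 and RP2 and at 1758% and 397% in RPC1 and RPC2. The log2 fold change of tumor-like nuclei over this class was -1.71 (SE 0.38, adjusted p = 0.00381; -2.16 to -1.06 with 1 animal left out), and Prr16 was the only member called lower, beside 11.6% of all genes. At 1000 transcripts per nucleus it was found in 14.6% (8.39 to 22.9), 15.1% (9.22 to 22.8), 14.8% (7.90 to 24.4) and 7.38% (3.43 to 13.5) of these nuclei in RP1, RP2, RPC1 and RPC2. The median marker in this class was 67.1% to 78.2% of its tumor-like level.

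**Figure D3:**
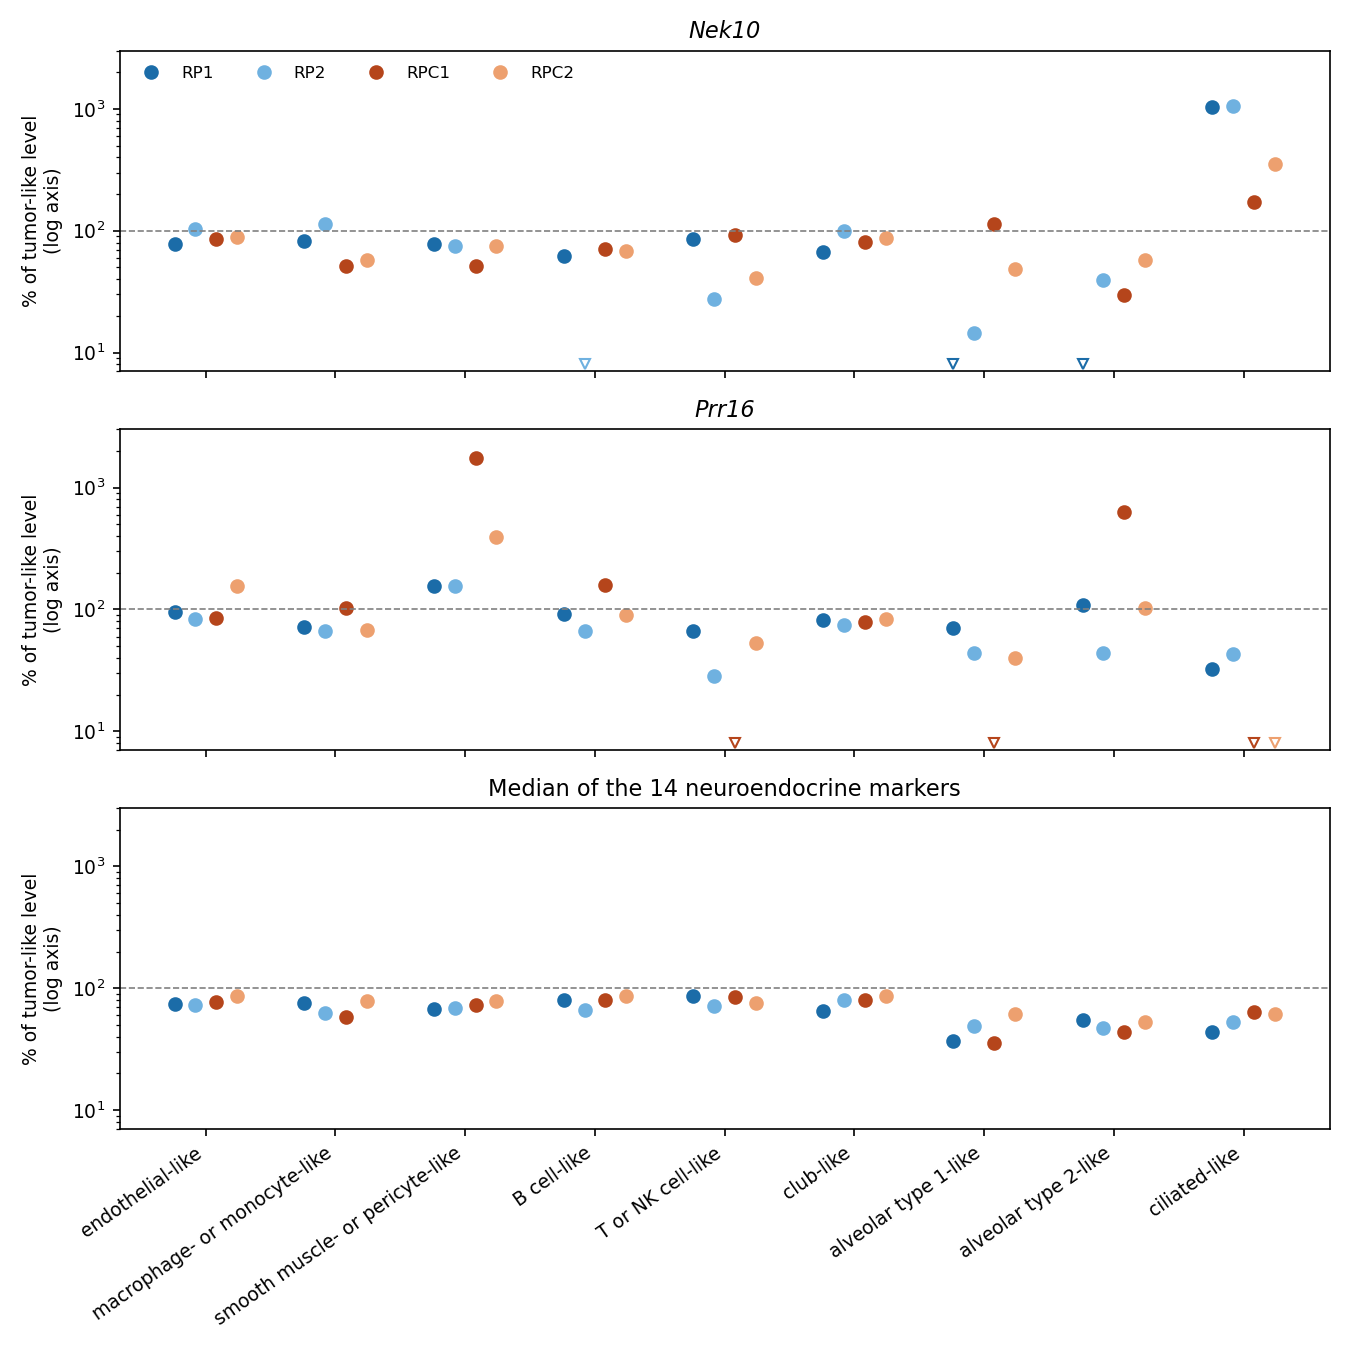
The level of Nek10 (top), of Prr16 (middle) and of the median of 14 neuroendocrine markers (bottom) is plotted by class as a percent of the tumor-like level of the same animal (log axis, dashed line at 100%, 1 point per animal). Open triangles at the lower edge stand for values under 8%, 0 included. Nek10 lies above the line in all 4 animals in ciliated-like nuclei and Prr16 in smooth muscle- or pericyte-like nuclei, where the markers stay below it.

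Whether the genes varied with cell division was asked within tumor-like nuclei. A nucleus with at least 3 transcripts of 30 mitosis genes was called mitotic and one with 0 non-mitotic, and none of the 8 is a mitosis gene. Mitotic nuclei by this count were 4694 of 7125 in RP1, 4528 of 7255 in RP2, 7434 of 9094 in RPC1 and 7210 of 8660 in RPC2, and non-mitotic ones 724, 821, 348 and 263. Most tumor-like nuclei were thus in the mitotic range, which is cut from a count and does not mark nuclei known to be dividing. Over all genes, 7.34% were higher and 4.11% lower in mitotic nuclei (1176 and 658 genes, or 1007 and 930 with the size factors of DESeq2). Nek10 was at 17.6 CPM in mitotic and 23.7 CPM in non-mitotic nuclei of RP1, 20.2 and 40.7 CPM in RP2, 64.4 and 106 CPM in RPC1, and 58.9 and 106 CPM in RPC2. It was lower in mitotic nuclei of 4 of 4 animals, by -0.75 on the log2 scale (SE 0.13, edgeR adjusted p = 1.17e-05), and the call held with each animal left out (-0.81 to -0.67). Without the animal in the model it was not called (adjusted p = 0.886). Corin was also lower in 4 of 4 animals (-0.31, SE 0.10, adjusted p = 0.0291), but was not called without RP1 (-0.21) or RPC2 (-0.33).

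C130073E24Rik and Npas3 were higher in mitotic nuclei, by 0.81 (SE 0.21, adjusted p = 0.00440) and 0.39 (SE 0.11, adjusted p = 0.0111) on the log2 scale. Both calls rested on RP1: without it C130073E24Rik was at 0.24 and Npas3 at 0.08, neither past the threshold. In RP1, Npas3 was at 375 CPM in mitotic and 198 CPM in non-mitotic nuclei, in RP2 at 329 and 314 CPM, in RPC1 at 31.4 and 19.0 CPM, and in RPC2, which went the other way, at 95.4 and 119 CPM. Luzp2 (-0.30, adjusted p = 0.0867), Gm30835 (-0.10, adjusted p = 0.671), Prr16 (0.17, adjusted p = 0.602) and 4930500G05Rik (0.10, adjusted p = 0.813) were not called, and without RP1 Gm30835 was called lower at -0.46. For 0 of the 8 genes did the test of a difference of this contrast between RPC and RP pass (lowest adjusted p = 0.252, for Prr16), beside 0.119% of all genes.

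The state followed depth: in RP1 mitotic nuclei held a median of 3109.5 and non-mitotic nuclei 1191.5 transcripts. With the state taken from 1000 transcripts drawn from each nucleus, a setting added after the data had been seen, these medians were 3248.5 and 2086. Nek10 was then at -0.77 (adjusted p = 1.57e-05), Corin at -0.47 (adjusted p = 2.97e-04), C130073E24Rik at 0.91 (adjusted p = 1.94e-05) and Npas3 at 0.40 (adjusted p = 0.0435).

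**Figure D4:**
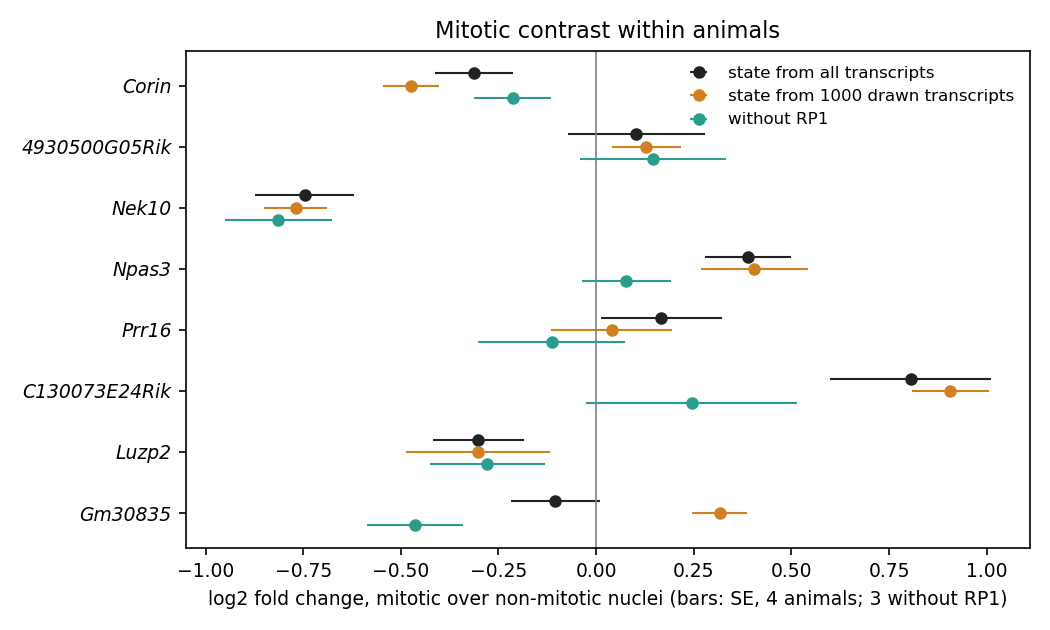
The log2 fold change of mitotic over non-mitotic tumor-like nuclei is plotted for each gene with its standard error, with the state from all transcripts (black), from 1000 drawn transcripts (orange) and without RP1 (green). Nek10 lies between -0.81 and -0.67 whichever animal was left out, whereas Npas3 falls from 0.39 to 0.08 without RP1.

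Corin acts on natriuretic peptides. The precursor genes Nppa, Nppb and Nppc reached at most 0.354 CPM in tumor-like nuclei of any animal. Pcsk6, the protease that activates Corin, was at 31.7 and 49.2 CPM in RP1 and RP2 and at 60.1 and 38.9 CPM in RPC1 and RPC2, with overlapping animals. Of the 8 other genes listed, 5 were tested between RPC and RP, and only Furin, a protease that cuts precursors within the secretory pathway, kept its animals apart, with a log2 fold change of -0.70 (25.5% of all genes were lower and apart). Against endothelial-like nuclei 4 of 5 were lower in tumor-like nuclei, beside 9.09% of all genes, led by the clearance receptor Npr3 (-5.33, adjusted p = 1.60e-09) and the receptor Npr1 (-1.52, adjusted p = 1.37e-05). Of 13 other type II transmembrane serine proteases tested, the family of Corin, 2 were higher and 1 lower in RPC with animals apart, beside 24.9% and 25.5% of all genes. The most abundant, St14 (matriptase), was at 132 to 169 CPM with a log2 fold change of 0.02, and the largest difference was that of Tmprss11e at -1.70, whose animals overlapped. St14, Tmprss2 and Tmprss4, 3 of 9 tested, were higher in tumor-like than in endothelial-like nuclei, beside 6.69% of all genes.

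Of 12 other bHLH-PAS factors tested, 4 were higher and 1 lower in RPC with animals apart, beside the 24.9% and 25.5% of all genes. Clock, a circadian factor, was the most abundant at 185 to 227 CPM (log2 fold change -0.02), and Arnt2, the partner of several of these factors, was higher in RPC by 0.52. Npas2, a relative of Npas3 and Clock, had the largest difference at -1.47 with overlapping animals. Epas1, the hypoxia factor of endothelium, was lower in tumor-like than in endothelial-like nuclei by -3.17 (adjusted p = 2.02e-11). Bmal1 and Bmal2 were not matched by symbol. Of the 10 other NIMA-related kinases, 3 were higher in mitotic nuclei, namely Nek2, a centrosome kinase (2.76, adjusted p = 1.50e-11), Nek3 (1.499, adjusted p = 4.42e-13) and Nek8 (1.06, adjusted p = 0.00555), and 0 were lower, beside 7.34% and 4.11% of all genes. Between RPC and RP, 6 of these 10 were higher and 0 lower with animals apart, beside 24.9% and 25.5% of all genes, the largest being Nek5 at 0.67. The median over the 10 was 0.29, beside -0.01 over all genes tested.

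Of 21 overlapping or nearest tested genes, 6 stood apart between genotypes in the direction of their member, 3 in the opposite direction and 12 not at all. With 24.9% of all genes apart and higher and 25.5% apart and lower, these counts are near or below the background. Around Corin, Atp10d and Nfxl1 overlapped between genotypes, while the antisense noncoding gene Gm20647 within Corin was higher in RPC by 2.17 at levels of at most 2.71 CPM. How the counting used strand was not given in the sources used here, so reads of Corin and Gm20647 may not be separable. Gm14634, a noncoding gene 66.5 kb from 4930500G05Rik, was at 23.0 and 22.0 CPM in RP1 and RP2 and at 71.9 and 55.8 CPM in RPC1 and RPC2, higher by 1.504. Gm45341, 222 kb from C130073E24Rik, was lower in RPC by -3.48, and Zfp804b, 335 kb from Gm30835, by -1.57. Npas3 and its neighbor Akap6, 92.6 kb away, went in opposite directions, with Akap6 higher in RPC by 2.15. Gm31517, 3.13 kb from Nek10, also went against its neighbor, with -2.31. The neighbors of Luzp2 and Prr16 lay 499 kb to 2829 kb away and overlapped between genotypes.

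Over the 28 sums of 1 animal and 1 class with at least 50 nuclei, the genes most like each member were named by Pearson correlation of log2(CPM + 1). Sums of one animal share its library wells and the tumor markers found in every class, so this likeness is a description and carries no p. Corin was most like Frmpd4 (r = 0.97), Zc3h6 (0.96) and Scaf11 (0.95). Gm30835 was most like Mycl (0.96), Pabpc4 (0.95) and Cap1 (0.93), and C130073E24Rik most like Trit1 (0.95), Rn7sk (0.92) and Pabpc4 (0.92). Mycl, a Myc family oncogene of SCLC, lies with Trit1, Cap1 and Pabpc4 between 122752832 and 123192720 on chromosome 4, away from both members on chromosomes 5 and 8. In that segment Pabpc4 was at 548 and 349 CPM in RP1 and RP2 and at 23.1 and 35.4 CPM in RPC1 and RPC2.

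4930500G05Rik was most like Col8a1, Dnah7a and Calca (0.926, 0.925 and 0.925), of which Calca encodes the neuroendocrine peptide CGRP, is 1 of the 14 markers, and was at 798 and 708 CPM in RP1 and RP2 against 1744 and 1669 CPM in RPC1 and RPC2. Nek10 was most like AW551984 (0.93), Gm33228 (0.93) and Ncapg2 (0.92), and Luzp2 most like Mir6236 (0.90), Fxr2 (0.90) and Mycl (0.90). Npas3 was most like Rn18s-rs5 (0.93), a ribosomal RNA that took 9.99% and 8.49% of the transcripts of RP1 and RP2 and 3.09% and 5.35% of those of RPC1 and RPC2, followed by Scrib (0.92) and Mir6236 (0.91). The ribosomal share thus moved with the levels of Npas3 between animals, and its part in them was not tested. Prr16 had the weakest likeness, with Astn2 (0.81), Marchf10 (0.79) and Gas5 (0.78).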

How the data were processed

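Nuclei of 4 fresh-frozen tumors were barcoded by split pooling (Parse Evercode), and the authors deposited, per animal, a table of whole-number transcript counts per gene and nucleus, aligned to GRCm39 with Ensembl release 110 genes, with no normalization. As in the study's methods, nuclei were kept with at least 300 counts, at most 12000 genes and at most 10% of counts from mitochondria, and no doublet caller was run. Nuclei were clustered (2000 variable genes without the 8, 20 principal components, Leiden resolution 0.4) and named from 13 marker lists. Counts were summed per animal and class, since the animal is the replicate (2 per genotype). Sums were tested with edgeR 4.0.16 (quasi-likelihood, TMM scaling, Benjamini-Hochberg adjustment over all genes), and DESeq2 1.42.0, the tool of the study, was an alternative. Class and mitotic contrasts held the animal as a block. The steps were tested on simulated counts.

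The 8 genes and all gene lists were chosen with earlier results of these data known. Genes outside the 8 were named from fixed families, nearest neighbors, the genes most alike, and leading genes of clusters. Ciliated-like nuclei, the state from 1000 drawn transcripts, the test between genotypes of the mitotic contrast and the fits without Npas3-rich clusters or without tumor-like clusters led by other cells' markers (at least 2 of 10 leading genes) were added after the data had been seen. Upstream sequences of the other genes are not reported here.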

Additional observations from a re-analysis of the deposited data

How the results depend on the processing

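With 2 animals per genotype, counts of called genes between RPC and RP depended on the tool: 0 with edgeR, 12 without the filter on low counts, 723 with DESeq2, and 0 to 7 with 1 animal left out. Animal numbers did not pair the animals (r = -0.052 over 20083 genes), and with a replicate block 0 genes were called. The mitotic contrast called 1834 genes, 282 without the animal as a block and 4371 with the state taken from 1000 drawn transcripts. Without the animal as a block, 916 genes were called against endothelial-like nuclei (2659 with it) and 2190 against macrophage- or monocyte-like nuclei (5408 with it). Gm30835 turned from -0.10 to 0.32 in the mitotic contrast with the state from drawn transcripts. The cause of these changes was not tested. In the comparison of RPC with RP, all 8 genes kept their direction under each alternative run. They were chosen with both RPC animals on one side of both RP animals, and every run used the same animals. This outcome thus follows from the choice and is no support for the differences. Of the values of the 8 genes in class and mitotic contrasts, 456 kept their side of the threshold, 61 fell short of it and 10 newly passed it. Another 1 changed sign with a value past the threshold. The 456 include values that changed sign without passing the threshold in either setting. Prr16 against alveolar type 2-like nuclei, for example, ran from -0.69 to 0.64 with 1 animal left out. Depth limits C130073E24Rik most, with 70 transcripts in RPC1.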
